A study of Mus musculus with 33 samples.

Results

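The 10 genes described here encode the enzymes that bring long-chain fatty acids into mitochondria and break them down there by β-oxidation. They are Cpt1a, Slc25a20 and Cpt2 (entry), Acadvl, Acadl, Acadm and Acads (the acyl-CoA dehydrogenases), Hadha and Hadhb (the mitochondrial trifunctional protein) and Etfdh (transfer of electrons to the respiratory chain). They were chosen by name, as the rows of the deposited gene table whose symbol matched, with earlier results of these data known. All 10 were found among the 19169 genes of the table, and all 10 passed the filter on low counts that left 14934 genes for testing.

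The study measured polyA RNA of mouse liver in 33 libraries from a 2 by 2 design of genotype and diet. In the knock-in group (KI) a mutant Nlrp3 allele, labelled Nlrp3A350V/+CreT, was inducible with tamoxifen. Nlrp3 encodes the sensor of an inflammasome, the complex that activates interleukin-1β. Wild-type (WT) mice were the controls. Mice of both genotypes ate control chow with placebo, or a diet with GS-444217, an inhibitor of ASK1 (a stress-activated kinase encoded by Map3k5), for 6 weeks. The 4 groups were WT on control chow (10 libraries, 7 female and 3 male), WT on inhibitor (8, 4 and 4), KI on control chow (5, 1 and 4) and KI on inhibitor (10, 5 and 5). The mice's age, the promoter that drives the Cre, and whether WT mice also had tamoxifen are not stated in the labels. Nor do they state whether libraries and mice correspond one to one, and p-values then reflect only how far libraries of a group differ, which may be technical.

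Fatty acids are activated to acyl-CoA outside the mitochondrial matrix. CPT1A, on the outer membrane, exchanges the CoA for carnitine and is the rate-limiting gate in liver. The carrier SLC25A20 moves acylcarnitine across the inner membrane, and CPT2 restores the acyl-CoA. The acyl-CoA dehydrogenases then take the first oxidation step on very long (ACADVL), long (ACADL), medium (ACADM) and short (ACADS) chains. HADHA and HADHB form a single complex that carries out the remaining steps on long chains. Electrons from the dehydrogenases pass through the flavoprotein ETF to ETFDH and on to ubiquinone. In liver the acetyl-CoA made in this way feeds the citric acid cycle and ketone body synthesis, and many of these genes are known targets of the nuclear receptor PPARA.

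The promoters of all 10 genes were found in the RefSeq table (build GRCm38.p6), which covers 250 bases before to 50 bases after a start of each gene. For Cpt1a the window, chromosome 19 from 3323051 to 3323350, lies at the start of the transcript that the deposited table lists, inside the longer RefSeq span of the gene given below. A pair of motifs was searched on both strands. The DR1 element, to which PPARA binds with RXR, was taken as 2 copies of AGGTCA 1 base apart with at most 2 mismatches over the 12 fixed letters. It was found in 1 of the 10 windows, against 3.86% of all 32817 promoter windows. The ERR element, TCAAGGTCA with at most 1 mismatch, was found in 0 of the 10 and in 7.46% of all. An ERR match can overlap a DR1 match, since both hold AGGTCA. The GC content of the 10 windows had a median of 59.7%, against 52.7% over all windows.

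The one DR1 match lay in the window of Slc25a20, on the gene's own strand, 6 to 18 bases downstream of its first base, with 2 mismatches. Positions are counted from the RefSeq start at 108662136, and the deposited table gives an earlier start, 108662097. It is shown because it is the only match among the members. The 130 bases run from 100 before to 30 from the start on, at chr9:108662036-108662165 on the plus strand, and the capitals mark the match.
Slc25a20: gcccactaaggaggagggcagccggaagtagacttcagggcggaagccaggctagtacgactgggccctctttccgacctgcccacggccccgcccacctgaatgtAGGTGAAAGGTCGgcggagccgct

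Hadha and Hadhb lie head to head on chromosome 5, with their starts 273 bases apart, so the genes of both subunits of the trifunctional protein share 1 upstream stretch. The 272 bases between the starts are shown because the levels of this pair are compared below as a ratio. They lie at chr5:30154981-30155252 and are printed on the plus strand, from the Hadha start on the left to the Hadhb start on the right. Their GC content was 60.3%, and neither motif matched, so no base is in capitals.
Hadha-Hadhb: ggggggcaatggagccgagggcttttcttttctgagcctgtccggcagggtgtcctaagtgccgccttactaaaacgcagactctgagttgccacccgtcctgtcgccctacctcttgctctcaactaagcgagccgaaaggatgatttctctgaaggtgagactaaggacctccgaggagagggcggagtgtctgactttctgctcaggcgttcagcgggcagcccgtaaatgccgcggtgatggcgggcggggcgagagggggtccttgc

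Total counts per library ranged from 28099676 to 40008118. Levels are given as CPM, the count relative to the TMM-scaled library total. Nlrp3 itself was at 3.03 ± 1.05 CPM (SD, n = 10) in WT on control chow and at 11.1 ± 3.45 CPM (SD, n = 5) in KI on control chow. One library stood apart from its label. The library labelled KI inhibitor replicate 5, from a female, had 2.10 CPM of Nlrp3, and on the first principal component (66.8% of the variance) it lay at -56.1, among the WT libraries (-70.5 to -42.7) and away from the other 9 of its group (52.5 to 97.1). The members' calls and medians on that group are therefore also given without it. Of 12 listed hepatocyte markers 11 were in the table, and all 11 had counts in all 4 groups.

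On control chow all 10 genes were lower in KI than in WT livers. The summed level of the 10 genes had a median of 3747 CPM in the 10 WT libraries (2596 to 4401) and of 1335 CPM in the 5 KI libraries (1278 to 1639). The log2 fold changes ran from -1.45 for Cpt2 to -0.87 for Acads, with a median of -1.15, against a median of -0.03 over all genes tested. By edgeR's quasi-likelihood test (Benjamini-Hochberg adjusted p under 0.05) 10 of 10 were called lower. Of all genes tested 28.9% were called lower in this comparison and 27.8% higher. In every one of the 10 genes, all 5 KI libraries lay below all 10 WT libraries. The share of all genes tested that separate the groups in this way was not counted. Bulk RNA cannot tell fewer hepatocytes apart from less of these RNAs per hepatocyte.

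**Figure D1:**
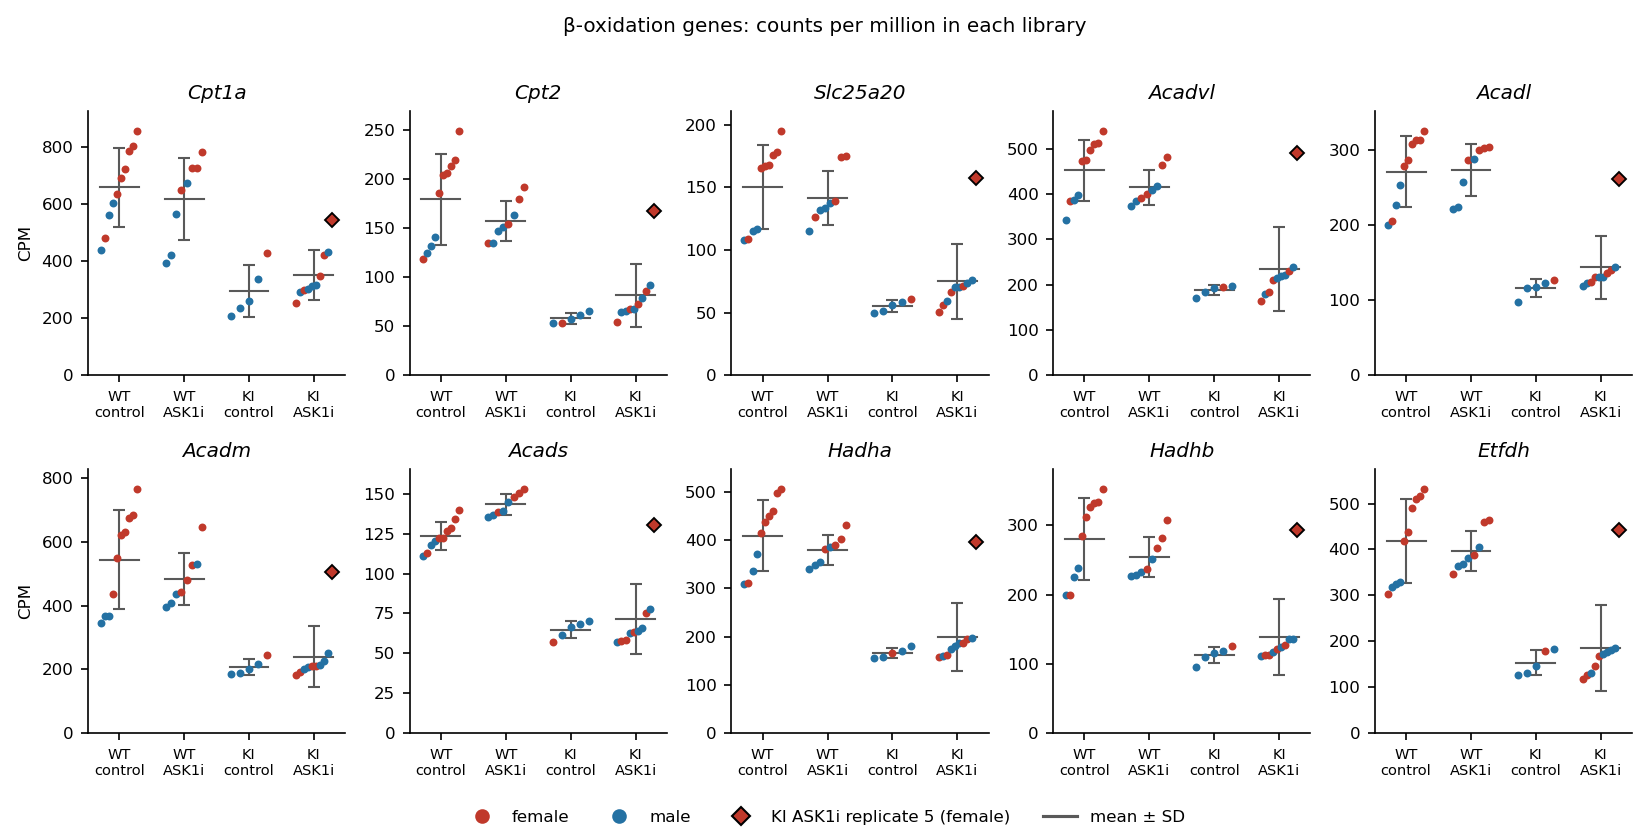
Level in CPM of each of the 10 genes in every library, by group. Points are libraries sorted from low to high within a group, red for females and blue for males, bars are the mean ± SD, and each vertical axis starts at 0. All 5 KI libraries on control chow sit below all 10 WT libraries in every panel. The share of all genes tested that separate in this way was not counted. The outlined diamond, the library labelled KI inhibitor replicate 5, sits near the WT points, at 395.7 CPM of Hadha for example.

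Of the entry genes, Cpt1a (chromosome 19, 3322326 to 3385735, RefSeq GRCm38.p6) ranged from 439 to 857 CPM in WT libraries on control chow, with a median of 665. The 5 KI libraries had 207.8, 236, 261, 339 and 429.8 CPM. The highest KI library, the only female of the group, was just under the lowest WT library, a male. The log2 fold change was -0.98 (SE 0.17, edgeR adjusted p = 2.12e-05).

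Cpt2 (chromosome 4, 107903982 to 107923589) ranged from 118 to 249 CPM in WT, with a median of 195. The 5 KI libraries had 52.7, 53.4, 57.0, 61.2 and 65.0 CPM. The groups were far apart, and the KI libraries lay close together. This was the largest difference among the 10 genes, 2.74-fold lower in KI (log2 fold change -1.45, SE 0.20, edgeR adjusted p = 5.13e-07).

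Slc25a20 (chromosome 9, 108662136 to 108684642), the carrier between the 2 transferases, fell from 150 ± 33.5 CPM (SD, n = 10) to 55.4 ± 4.78 CPM (SD, n = 5). Its log2 fold change was -1.26 (SE 0.17, edgeR adjusted p = 5.75e-07).

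Among the dehydrogenases, Acadm (chromosome 3, 153922353 to 153944643), the medium-chain enzyme, ranged from 344 to 767 CPM in WT, with a median of 585. The 5 KI libraries had 184, 187, 199.6, 216.5 and 244 CPM, all below the lowest WT library. It was 2.23-fold lower in KI (log2 fold change -1.16, SE 0.16, edgeR adjusted p = 9.89e-07).

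Acads (chromosome 5, 115110299 to 115119346), the short-chain enzyme, was the steadiest of the 10 genes in WT livers, from 111 to 140 CPM with a median of 122. The 5 KI libraries had 57.1, 61.8, 66.3, 68.6 and 70.0 CPM. Neither group came near the other, and the fold was the smallest of the 10, 1.83-fold lower (log2 fold change -0.87, SE 0.13, edgeR adjusted p = 1.82e-06).

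Acadvl (chromosome 11, 70010183 to 70015428) fell from 452 ± 67.8 to 188 ± 10.4 CPM, and Acadl (chromosome 1, 66830839 to 66863309) from 271 ± 46.8 to 116 ± 11.6 CPM (SD, n = 10 and 5). These are the enzymes of very long and long chains. Their log2 fold changes were -1.14 (SE 0.15) and -1.07 (SE 0.14), with edgeR adjusted p of 2.53e-07 and 2.04e-07.

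Both subunits of the trifunctional protein were lower in KI. Hadha (chromosome 5, 30119423 to 30154980), the α subunit with the hydratase and the hydroxyacyl-CoA dehydrogenase, ranged from 309 to 507 CPM in WT, with a median of 426. The 5 KI libraries had 156, 157, 167, 169.7 and 180.2 CPM. Hadhb (chromosome 5, 30155253 to 30184593), the β subunit with the thiolase, ranged from 199 to 353 CPM in WT, and its KI libraries had 95.2, 110.2, 116, 119 and 126 CPM. The 2 log2 fold changes were close, -1.16 for Hadha (SE 0.15, edgeR adjusted p = 2.54e-07) and -1.14 for Hadhb (SE 0.16, edgeR adjusted p = 1.00e-06).

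Etfdh (chromosome 3, 79603788 to 79628767), where the electrons leave for the respiratory chain, ranged from 303 to 532 CPM in WT, with a median of 428. The 5 KI libraries had 126, 131, 146, 179 and 184 CPM. No KI library reached the lowest WT library, and the gene was 2.46-fold lower (log2 fold change -1.30, SE 0.20, edgeR adjusted p = 2.18e-06).

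The sex and library sets were not balanced between these groups, so the difference was also taken within sets. Library titles fell into a numbered set and a set whose numbers end in P. Within the numbered set (8 WT and 4 KI libraries) all 10 genes were lower in KI, with a median log2 difference of -1.35, and within the P set (2 and 1) likewise, with a median of -1.05. These within-set values carry no test and are not adjusted for sex (7 females and 1 male in WT and 1 female and 3 males in KI in the numbered set, males alone in the P set). In male libraries alone the median of the 10 log2 fold changes was -0.97. No L code of the titles, whose meaning is not stated, held both WT and KI libraries on control chow. With the L code as a term the median was -0.94.

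The same 10 of 10 genes were lower in KI than in WT livers on the inhibitor diet, against a background of 28.8% of genes called lower and 30.3% called higher. The log2 fold changes ran from -1.07 for Etfdh to -0.78 for Cpt1a, with a median of -0.92, against 0.01 over all genes tested. Without the library labelled KI inhibitor replicate 5 all 10 were again called lower, with a median of -1.05. The summed level of the 10 genes had a median of 3237 CPM in the 8 WT libraries (2737 to 3921). It was 1300 to 1736 CPM in 9 of the 10 KI libraries and 3387 CPM in the library labelled replicate 5. The 2 KI versus WT comparisons use different libraries but 1 shared estimate of spread.

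Cpt1a was at 394.6 to 784 CPM in WT on inhibitor (median 662) and at 252 to 545 CPM in KI on inhibitor (median 314). It was the gene with the most overlap, with 7 of the 10 KI libraries below all 8 WT libraries (log2 fold change -0.78, SE 0.14, edgeR adjusted p = 1.78e-05). Acads was at 136 to 153 CPM in WT (median 142) and at 57.0 to 131 CPM in KI (median 63.8). It was the only member for which all 10 KI libraries, the one labelled replicate 5 included, lay below all 8 WT libraries (log2 fold change -0.99, SE 0.10, edgeR adjusted p = 4.77e-09). Etfdh was at 346 to 464 CPM in WT (median 384) and at 118 to 442 CPM in KI (median 169). Its top KI value was the library labelled replicate 5, and the next was 185 CPM.

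For each of the other 7 genes, 9 of the 10 KI libraries lay below all 8 WT libraries, and the exception was that same library. The share of all genes tested that separate in this way was not counted here either. Their log2 fold changes lay between -0.97 for Acadm and -0.79 for Acadvl. Within the L1 code (2 WT and 4 KI libraries) all 10 genes were lower in KI, with a median log2 difference of -1.16. Within the L7 code (2 and 1) the median was -1.10. Neither value is adjusted for sex. Without the library labelled replicate 5 the model's log2 fold changes ran from -1.28 for Etfdh to -0.84 for Cpt1a, with Acads at -1.14.

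**Figure D2:**
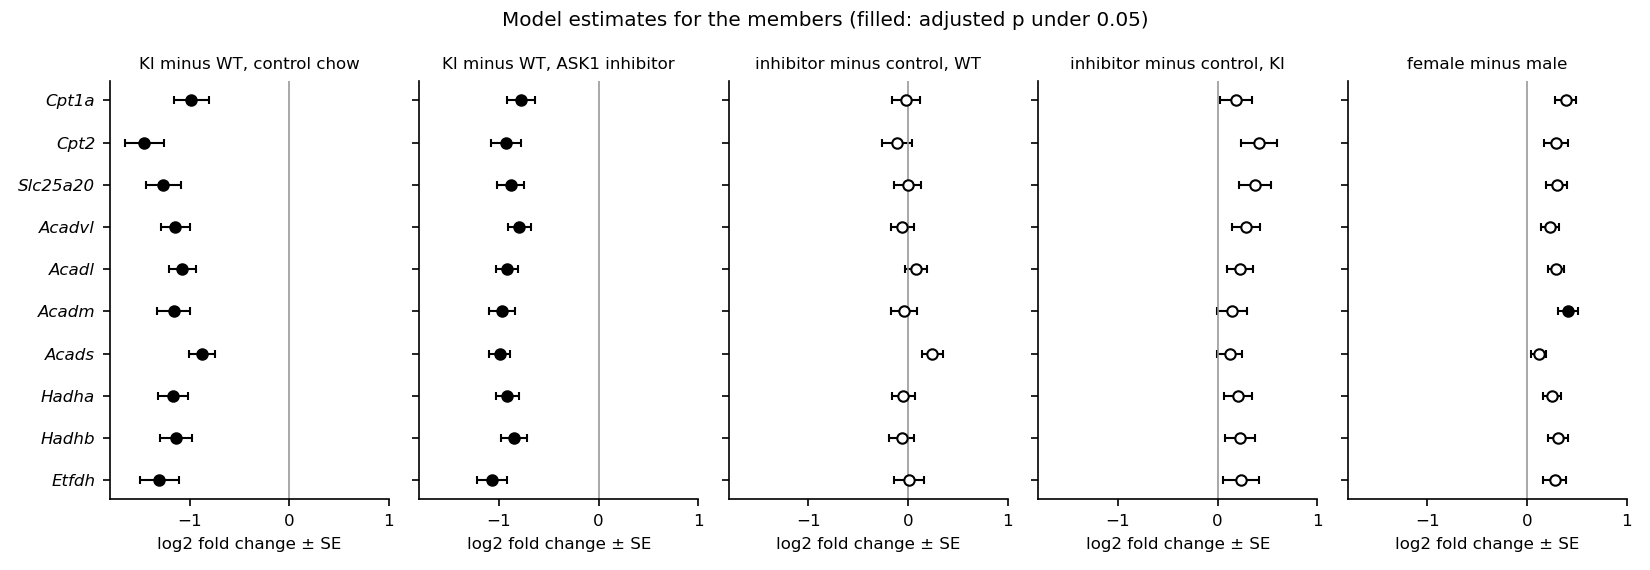
Log2 fold change ± SE of each of the 10 genes in 5 comparisons, from 1 model over all 33 libraries; filled points passed an adjusted p of 0.05. Both KI versus WT panels hold 10 filled points left of 0, the 2 inhibitor panels hold none, and the female versus male panel holds 1, Acadm at 0.41.

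In WT livers the inhibitor diet changed none of the 10 genes past the threshold. The median log2 fold change was -0.03, and 1.40% of all genes tested were called in either direction. By edgeR's quasi-likelihood test 0 of 10 passed after adjustment. An unadjusted p under 0.05 was reached by 1 member and by 2079 of the 14934 genes tested. DESeq2 and limma-voom also called 0 members. The member with an unadjusted p under 0.05 was Acads. Its values were 111 to 140 CPM on control chow (median 122) and 136 to 153 CPM on inhibitor (median 142). All 8 libraries on inhibitor lay above the control mean and 4 of them above every control library. The log2 fold change was 0.24 (SE 0.10, p = 0.0253, edgeR adjusted p = 0.279). When only the WT groups were fitted it passed (log2 fold change 0.23, edgeR adjusted p = 0.00790), and likewise without the library labelled KI inhibitor replicate 5 (0.22, edgeR adjusted p = 0.0433). Over the 45 other settings, which include leaving out each library, an adjusted p under 0.05 occurred among the 10 genes in these 2 cases alone.

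The other 9 estimates in WT lay between -0.11 for Cpt2 and 0.08 for Acadl. For Cpt1a the estimate was -0.02 with a 95% interval of -0.29 to 0.26, and for Acadm -0.04 with an interval of -0.30 to 0.21. Within the L6 code (4 and 4 libraries) the median difference of the 10 genes was -0.01, within the numbered set -0.16 and within the P set 0.19. These differences are not adjusted for sex. The numbered set held 7 females and 1 male on control chow and 2 females and 4 males on inhibitor, the P set 2 males and then 2 females, and the L6 code 3 females and 1 male and then 1 female and 3 males.

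In KI livers, too, 0 of 10 genes passed, against a background of 0.0536% of genes called in either direction. All 10 estimates were above 0, with a median of 0.23, against 0.03 over all genes tested. Some of the lists described below also had every estimate above 0, such as the citric acid cycle (lowest 0.02), and others did not. In edgeR's test an unadjusted p under 0.05 was reached by 3 members and by 1539 of the 14934 genes tested. DESeq2 and limma-voom called 0 members. Cpt2, at 52.7 to 65.0 CPM on control chow (median 57.0) and 54.4 to 168 CPM on inhibitor (median 70.0), had the largest estimate (0.41, SE 0.18, p = 0.0313, edgeR adjusted p = 0.462). Of the 10 libraries on inhibitor 7 lay above all 5 on control chow. Slc25a20 had 0.38 (SE 0.16, edgeR adjusted p = 0.458) and Acadvl 0.29 (SE 0.14, edgeR adjusted p = 0.482). Without the library labelled KI inhibitor replicate 5 the median of the 10 fell to 0.11, the estimate of Cpt2 to 0.29, that of Slc25a20 to 0.25, that of Acadvl to 0.16 and that of Acads to 0.01.

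The difference between the 2 inhibitor responses was tested as an interaction of genotype and diet. By edgeR's test 0 of the 10 genes passed, with a background of 0% of all genes. An unadjusted p under 0.05 was reached by 1 member and by 1251 of all genes, and DESeq2 and limma-voom called 0 members. The median of the 10 estimates was 0.24, and 0.16 without the library labelled KI inhibitor replicate 5. It was -0.02 with the L code in place of the title set and -0.01 in male libraries alone. For Cpt2 the interaction was 0.53 (SE 0.24, edgeR adjusted p = 0.579) with a 95% interval of 0.05 to 1.00 before adjustment.

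All 10 genes had a positive female minus male estimate in the model over all 33 libraries, with a median of 0.29, against 0.01 over all genes tested. Acadm alone passed, at 0.41 (SE 0.10, edgeR adjusted p = 0.0308), against a background of 1.49% of genes called in either direction. Cpt1a had 0.39 (SE 0.11, edgeR adjusted p = 0.0579) and Acadl 0.29 (SE 0.08, edgeR adjusted p = 0.0754). Acads had the smallest estimate, 0.11 (SE 0.08, edgeR adjusted p = 0.552). The call of Acadm was lost without any 1 of 7 libraries: WT control replicates 8, 1P and 2P and WT inhibitor replicates 2, 3, 5 and 1P. Its estimate then lay between 0.37 and 0.42. Without the library labelled KI inhibitor replicate 5, a female, the median of the 10 was 0.19, the estimate of Acadm 0.31 (edgeR adjusted p = 0.0243) and that of Acads 0.03. Of 14928 genes tested 657 were then called in either direction.

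In WT livers on control chow the 3 males had 344, 366.9 and 367.2 CPM of Acadm and the 7 females 435 to 767 CPM (median 630). The sexes did not overlap. For Cpt2 the 3 males had 125, 132 and 141 CPM and the females 118 to 249 CPM (median 206), and the females overlapped the males only through replicate 7. That female library was at 118 CPM of Cpt2, 303 CPM of Etfdh and 311 CPM of Hadha, at the level of the males. The other 6 females lay above all 3 males in all 10 genes, but replicate 7 was set aside after its values were seen. The share of all genes tested that separate the sexes was not counted, with or without that library. The levels of most members moved together in WT livers, as described below, so the 10 genes are not independent observations. The males of this group included both P libraries, and no female did. On inhibitor the WT sexes overlapped for Acadm, with females at 443 to 646 CPM (median 504) and males at 397 to 529.6 CPM (median 422).

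A sex term for each genotype was added after the data were seen. In WT alone the estimates of the 10 genes had a median of 0.31, and 0 of 10 passed (1.85% of all genes called). Without the library labelled KI inhibitor replicate 5, which adds to the shared estimate of spread, 4 of 10 passed (3.87% of all genes). These were Acadm (0.49, edgeR adjusted p = 0.00352), Slc25a20 (0.38, edgeR adjusted p = 0.0230), Acadl (0.31, edgeR adjusted p = 0.0239) and Hadhb (0.33, edgeR adjusted p = 0.0288). In KI alone 0 of 10 passed with that library (0.187% of all genes) and without it (0.201%), where the median was -0.01. The difference of the 2 sex terms passed for 0 of 10 genes with that library (0.00670% of all genes) and without it (0%), where its median was 0.28.

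Levels of different genes can be set side by side only per length. CPM values were divided by the length of the GENCODE transcript that matches each gene's RefSeq accession. In WT on control chow Acadm had the highest level, 266 ± 75.5 CPM per kilobase (SD, n = 10), followed by Acadvl at 209 ± 31.3 and Etfdh at 176 ± 38.7. Cpt1a, Acadl and Hadhb came next, at 153, 141 and 137 CPM per kilobase, within each other's SD. Hadha was at 102, Slc25a20 at 84.1, Cpt2 at 75.6 and Acads at 66.2 CPM per kilobase, and the SDs of Slc25a20, Cpt2 and Acads overlapped. In KI on control chow Acadm (101) and Acadvl (86.6) again led. Cpt2 was the lowest of the 10 at 24.4 CPM per kilobase, below Acads at 34.6.

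**Figure D3:**
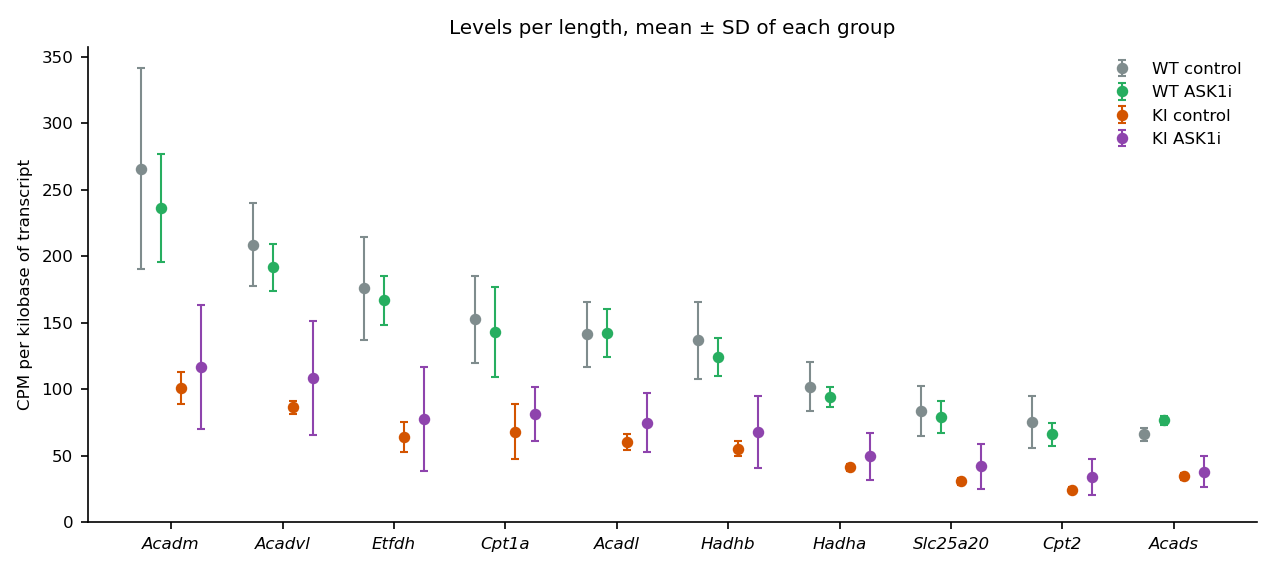
Level per kilobase of transcript of the 10 genes, mean ± SD of the libraries of each group (WT control n = 10, WT inhibitor n = 8, KI control n = 5, KI inhibitor n = 10), with genes ordered by their level in WT on control chow. Acadm and Acadvl lead in all 4 groups, and the wide bars of KI on inhibitor include the library labelled replicate 5.

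The 10 genes moved together from library to library within WT livers, apart from Acads. Over the 18 WT libraries of both diets Pearson's r of the log2 levels between 2 of the genes had a median of 0.87 over the 45 pairs. The highest value was 0.98, and the lowest, 0.22, was that of Cpt1a with Acads. Over the 14 KI libraries (without the one labelled replicate 5) the median was 0.52 and the range -0.25 to 0.85. The lowest value there belonged to Cpt1a and Cpt2, whose r was 0.67 in WT. All values of a library share its depth, scaling, sex and diet, so these are descriptions.

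Ratios of 2 genes within a library need no scaling between libraries. The log2 ratio of Hadhb to Hadha was -0.56 ± 0.07 (SD, n = 10) in WT on control chow and -0.56 ± 0.12 (SD, n = 5) in KI. The difference was -0.0004 with a 95% interval of -0.10 to 0.10 (exact permutation test, two-sided, p = 0.992). On inhibitor the difference between KI and WT was 0.05 with an interval of -0.04 to 0.15, and 0.04 without the library labelled KI inhibitor replicate 5.

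The other 3 ratios also gave no adjusted p under 0.05 among the 16 tests, 4 ratios in 4 comparisons. The log2 ratio of Cpt2 to Cpt1a was -1.89 ± 0.21 in WT (SD, n = 10) and -2.30 ± 0.51 in KI (SD, n = 5) on control chow. The difference was -0.41 (interval -0.80 to -0.02, exact permutation p = 0.0363, adjusted p = 0.194). The log2 ratio of Acads to Acadm was -2.08 ± 0.35 in WT and -1.67 ± 0.25 in KI on control chow (SD, n = 10 and 5; difference 0.42, interval 0.04 to 0.80, exact permutation p = 0.0326, adjusted p = 0.194). In WT on inhibitor the same ratio was -1.74 ± 0.19 (SD, n = 8), a difference of 0.35 from control chow (interval 0.05 to 0.64, exact permutation p = 0.0259, adjusted p = 0.194). The ratio tests hold no term for sex or title set. In WT on control chow the 3 males had the highest ratios of Acads to Acadm, -1.64, -1.63 and -1.61, above all 7 females. In KI on control chow the 4 males had -1.63, -1.60, -1.59 and -1.42, and the 1 female -2.09. The part of sex in these differences was not tested. The log2 ratio of Acadl to Acadvl differed by 0.05 between KI and WT on control chow (interval -0.11 to 0.20, exact permutation p = 0.533).

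**Figure D4:**
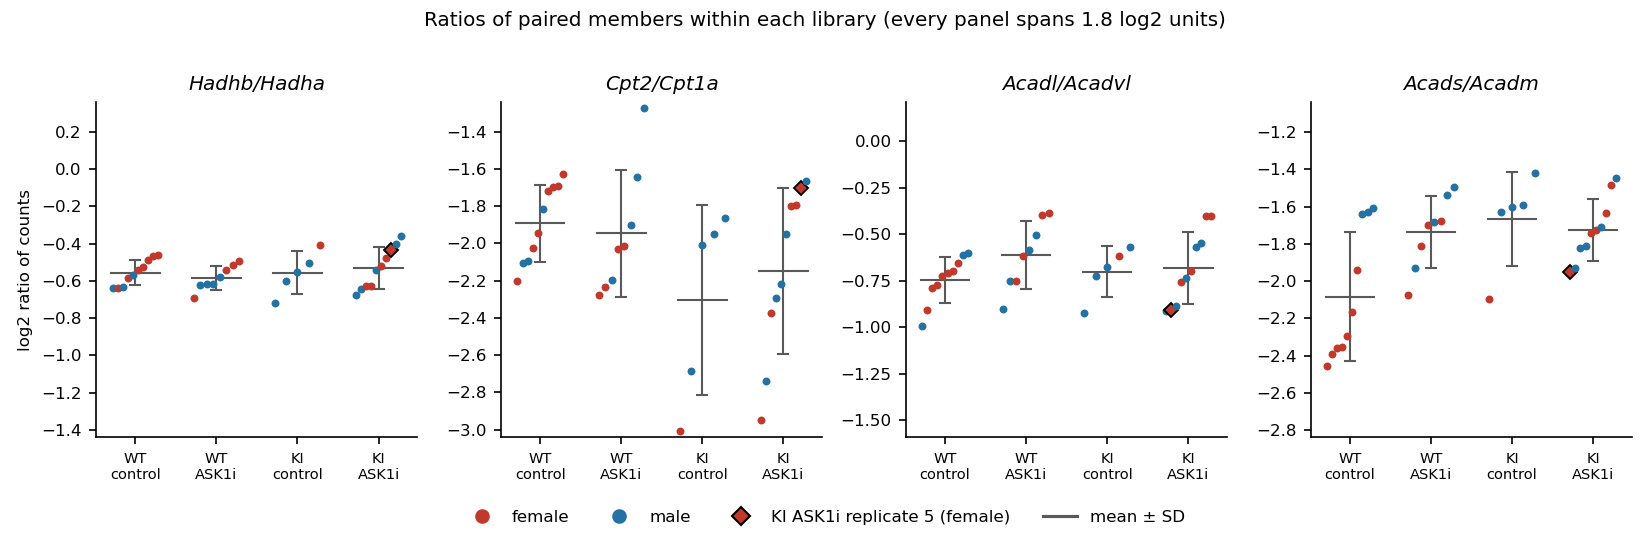
Log2 ratio of the counts of 4 pairs of members in every library; each panel spans the same range, red points are females, blue points males, bars mean ± SD. Hadhb to Hadha stays within -0.72 to -0.36 in all libraries, while Cpt2 to Cpt1a spreads from -3.01 to -1.27.

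The genes around these enzymes were read from 11 pathway lists, also chosen with earlier results of these data known. Every list median was below 0 in both KI versus WT comparisons, against -0.03 and 0.01 over all genes tested. The values on inhibitor include the library labelled KI inhibitor replicate 5. Without it, a setting added after the data were seen, each list had the same numbers of genes called higher and lower on inhibitor, and the list medians ran from -1.47 for ketogenesis to -0.26 for mitochondrial import. The later steps and auxiliary enzymes, which finish the cycle on shorter or unsaturated chains, were lower in KI in 8 of 8 genes on control chow (median -1.33) and in 8 of 8 on inhibitor (median -1.10). Among them the thiolase Acaa2 was at -1.39 (SE 0.18), the isomerase Eci1 at -1.50 (SE 0.20), the dienoyl-CoA reductase Decr1 at -1.53 (SE 0.20) and the dienoyl-CoA isomerase Ech1 at -1.38 (SE 0.19) on control chow. Both subunits of ETF, which hands electrons to ETFDH, were lower on control chow, Etfa at -0.89 (SE 0.13) and Etfb at -0.81 (SE 0.12). On inhibitor they were at -0.92 and -0.77.

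Of 8 other acyl-CoA dehydrogenases, which act on branched chains, amino acid products or other substrates, 7 were lower in KI on control chow (median -1.01) and 8 on inhibitor (median -1.06). Acad11 was at -1.49 (SE 0.20), Gcdh at -1.14 (SE 0.16), Acadsb at -1.04 (SE 0.14) and Acad8 at -1.01 (SE 0.13) on control chow. Acad9, which also serves assembly of complex I, was at -0.21 (SE 0.13) and did not pass there (named after its values were seen). All 4 genes tested of propionyl-CoA handling were lower in both comparisons, with Pccb at -0.99 (SE 0.13), Pcca at -0.95 (SE 0.13), Mut at -0.72 (SE 0.10) and Mcee at -0.72 (SE 0.12) on control chow.

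Of 14 genes of fatty acid uptake and activation, 10 were lower and 1 higher in KI on control chow (median -0.91), and 12 and 1 on inhibitor (median -0.97). The long-chain acyl-CoA synthetase Acsl1, which supplies the substrate of CPT1A, was at -2.07 (SE 0.29). The medium-chain synthetases Acsm5 and Acsm3 were at -1.53 (SE 0.22) and -1.28 (SE 0.19), and the very long chain synthetase and transporter Slc27a2 at -1.92 (SE 0.29). The gene that rose was Acsl4, a synthetase that prefers polyunsaturated chains, at 0.73 (SE 0.16) on control chow and 0.74 (SE 0.14) on inhibitor.

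Of 9 other carnitine genes, 6 were lower and 1 higher on control chow (median -0.76), and 5 and 1 on inhibitor (median -0.79). Aldh9a1 and Bbox1, of carnitine synthesis, were at -1.21 (SE 0.15) and -1.44 (SE 0.21) on control chow. The carnitine importer Slc22a5 was at -1.43 (SE 0.22) and the peroxisomal octanoyltransferase Crot at -1.97 (SE 0.35). Cpt1c, the brain form of the transferase, was higher in KI, at 1.25 (SE 0.26) on control chow and 0.96 (SE 0.23) on inhibitor, but at a very low level. Its mean on control chow was 0.49 CPM in WT (10 to 29 counts per library) and 1.10 CPM in KI (29 to 52 counts).

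Of 13 genes that control mitochondrial fatty acid oxidation, 9 were lower in KI on each diet, with medians of -0.74 and -0.53. Ppara, named after its values were seen, was at -1.38 (SE 0.26, edgeR adjusted p = 5.81e-05) on control chow and -1.02 (SE 0.20) on inhibitor. The mitochondrial deacylases Sirt3 and Sirt5 were at -1.19 (SE 0.14) and -0.75 (SE 0.13), the malonyl-CoA decarboxylase Mlycd at -0.71 (SE 0.12) and the kinase subunit Prkaa2 at -0.74 (SE 0.14) on control chow. Malonyl-CoA inhibits CPT1A, and MLYCD removes it. The list also holds the acetyl-CoA carboxylase genes Acaca and Acacb, whose KI versus WT values are not given here. Malonyl-CoA was not measured, and the part of these genes in CPT1A activity was not tested. In ketogenesis, 4 of 5 genes were lower and 1 higher on both diets (medians -1.63 and -1.10). Acat1, the thiolase that joins acetyl-CoA units, was at -1.63 (SE 0.20) and Bdh1, which makes β-hydroxybutyrate, at -1.98 (SE 0.37) on control chow, while the transporter Slc16a6 rose by 0.94 (SE 0.26).

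Peroxisomal β-oxidation, which shortens very long chains, had 8 of 11 genes lower on control chow (median -1.04) and 10 lower and 1 higher on inhibitor (median -1.01). Decr2 was at -1.38 (SE 0.20), Scp2 at -0.99 (SE 0.15), Hsd17b4 at -1.15 (SE 0.18) and Abcd3 at -1.46 (SE 0.23) on control chow. Acox2, of the branched-chain and bile acid branch, was higher in KI than in WT on inhibitor (0.43, SE 0.14) and was at 0.02 (SE 0.17) on control chow. In the citric acid cycle 14 of 16 genes were lower on each diet, with medians of -0.74 and -0.73, among them Sucla2 at -0.97 (SE 0.12), Sdha at -1.01 (SE 0.15), Suclg1 at -0.93 (SE 0.14) and Sdhb at -0.86 (SE 0.14) on control chow.

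Mitochondrial import and outer membrane genes, which mark the organelle more than its fuel, had the list median nearest to 0, -0.32 on control chow (7 of 11 lower) and -0.22 on inhibitor (8 lower, 1 higher). Hspd1 was at -0.76 (SE 0.11), Hspa9 at -0.81 (SE 0.13), Timm44 at -0.57 (SE 0.09) and Vdac1 at -0.64 (SE 0.12) on control chow. Tomm20 was higher in KI than in WT on inhibitor (0.22, SE 0.08) and was at -0.12 (SE 0.09) on control chow. Without a scaling factor between libraries the median of all genes shifted by 0.13 on control chow and by 0.09 on inhibitor. The genes called on control chow were then 5016 higher and 2905 lower, in place of 4145 and 4321, and all 10 members were still called lower.

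**Figure D5:**
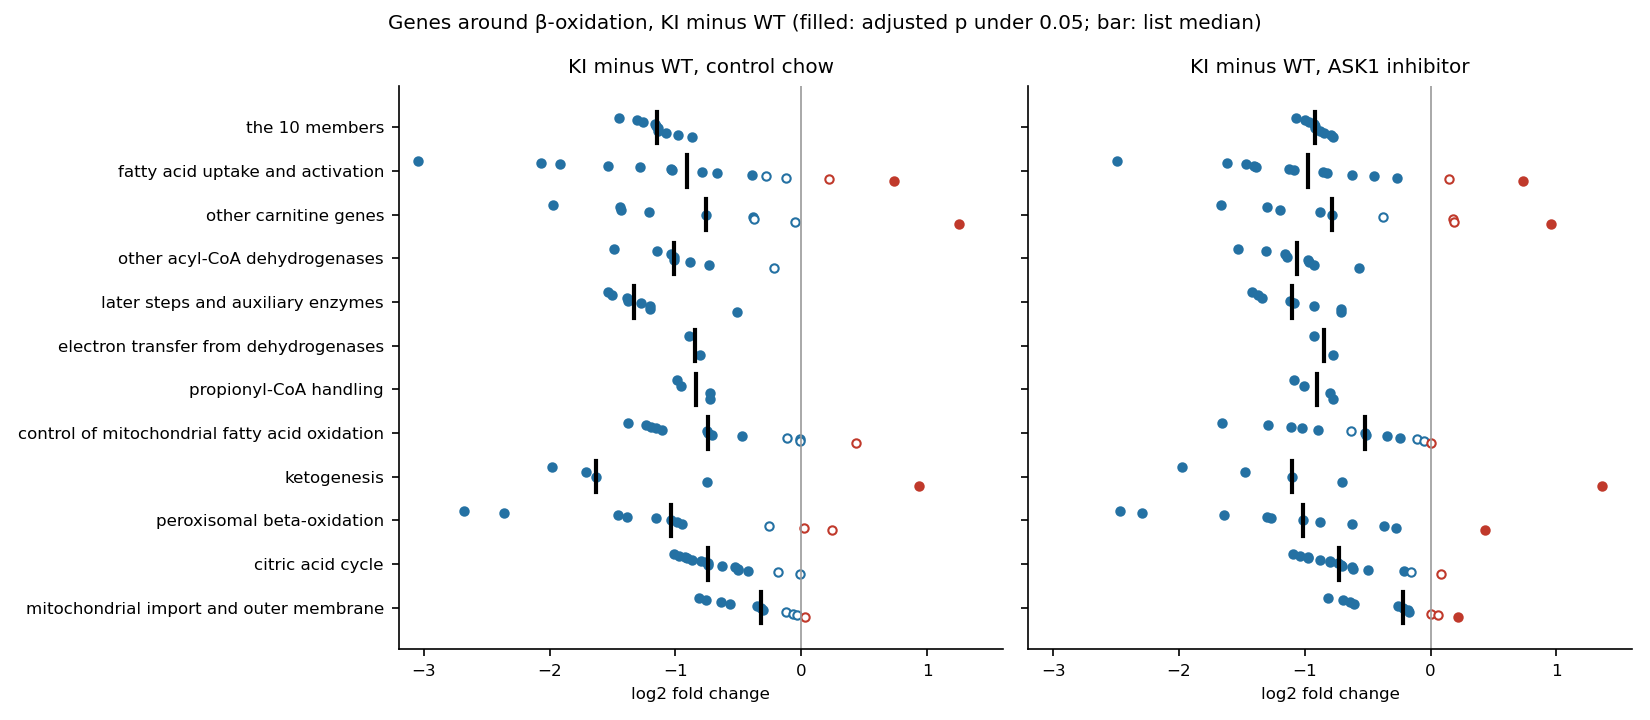
Log2 fold change of KI against WT for the 10 members and the genes of the 11 pathway lists, on control chow (left) and on inhibitor (right). Each point is a gene, blue below 0 and red above, filled where the adjusted p was under 0.05, and the black bar is the list median. All list medians lie left of 0, from -1.63 for ketogenesis to -0.32 for mitochondrial import on control chow.

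Under the inhibitor diet the genes of these lists that passed in WT livers included the fatty acid translocase Cd36 (0.60, SE 0.14, edgeR adjusted p = 0.0171), Pcca (0.40, SE 0.11) and Sirt5 (0.41, SE 0.10), each higher on inhibitor. In KI livers 0 of them passed in edgeR's test. Between the sexes Slc22a5, the carnitine importer, was the list gene that passed (0.56 higher in females, SE 0.13, edgeR adjusted p = 0.0240). Without the library labelled KI inhibitor replicate 5 it was at 0.47, and Acsm5 (-0.39, edgeR adjusted p = 0.0442) and the acetyl-CoA carboxylase Acaca (-0.46, edgeR adjusted p = 0.0332) also passed, both lower in females and both named after their values were seen. Between the 2 diets in KI livers 0 list genes passed in edgeR's test without it as well.

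Markers of other cells moved with genotype as well. Of 12 neutrophil markers 12 were higher in KI on control chow, and their summed level ran from 6.68 to 25.8 CPM in WT and from 765 to 3944 CPM in KI. On inhibitor it was 5.57 to 13.1 CPM in WT, 742 to 5153 CPM in 9 KI libraries and 12.1 CPM in the library labelled replicate 5. The 10 monocyte and macrophage markers were all higher, with sums of 80.5 to 169 CPM in WT and 907 to 1137 CPM in KI on control chow. Of 8 Kupffer cell markers 8 were higher on control chow (356 to 1107 CPM in WT and 1835 to 2447 CPM in KI). Stellate cell markers were higher in 7 of 9 (67.4 to 92.5 CPM and 188 to 370 CPM). Of the endothelial markers 6 of 8 were higher and 1 lower, of the T, NK and B cell markers 4 of 9 and 3, of the bile duct markers 1 of 7 and 1, of the 5 erythroid markers tested 0 and 2, and the 1 adipocyte marker tested was lower.

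Of 11 hepatocyte markers 7 were lower and 1, Fgb, higher in KI on control chow (median -0.45), and 5 were lower and 2 higher on inhibitor (median -0.14, and -0.21 with the same counts without the library labelled replicate 5). Their summed level ran from 122962 to 150437 CPM in WT and from 53300 to 79746 CPM in KI on control chow. On inhibitor it was 119730 to 160530 CPM in WT, 55436 to 92441 CPM in 9 KI libraries and 128933 CPM in the library labelled replicate 5. The part of these cell markers in the difference of the β-oxidation genes was not tested.

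The genes whose levels followed the members most closely were ranked by the smaller of 2 correlations with the members' mean log2 level, over the 18 WT and the 14 KI libraries, among 7915 genes of at least 10 CPM. The 5 highest were Dhrs4 (r = 0.88 in WT and 0.80 in KI), Ech1 (0.96 and 0.75), Acat1 (0.89 and 0.75), Eci1 (0.77 and 0.72) and Retsat (0.84 and 0.69). Ech1, Eci1 and Acat1 were already in the pathway lists. Dhrs4 is a short-chain dehydrogenase/reductase and Retsat is retinol saturase. All 5 were lower in KI on control chow, Dhrs4 by a log2 fold change of -0.96 (SE 0.13, edgeR adjusted p = 4.86e-07) and Retsat by -3.72 (SE 0.61, edgeR adjusted p = 8.26e-06). These correlations are descriptions over libraries that share depth, sex and diet.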

How the data were processed

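PolyA RNA of 33 mouse liver libraries was measured with a stranded mRNA kit, per the labels' protocols. The authors deposited 1 table of expected counts per gene, made with CASAVA 1.8.2, STAR 2.4, RSEM 1.2.14 and build mm10, per the submitters' processing notes; the annotation is not given in the sources used here. These values, 91.4% to 93.7% of them whole per library, were rounded. Genes were filtered by edgeR 4.0.16's default by group, scaled by TMM and fitted by the quasi-likelihood test with sex and title set as terms over all 4 groups (R 4.3.3, fold-change prior count 0.125), with Benjamini-Hochberg adjustment over 14934 genes and a threshold of 0.05. Intervals of fold changes are the estimate ± 1.96 SE. Ratios of 2 members were tested by exact permutation after adding 0.5 count, with no term for sex or title set. DESeq2 1.42.0 and limma-voom 3.58.1 were alternatives. Transcript lengths came from GENCODE vM21, and values per kilobase were not rescaled. Promoters and coordinates are RefSeq GRCm38.p6. Scripts were tested on simulated data.

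Groups, sex and sets came from the labels. All 10 members are reported. Of each pathway list up to 4 genes with the smallest p and any gene against its list's direction are named. Some genes that this rule selects are not reported here. The members and lists were chosen with earlier results of these data known. No 2 libraries of a group agreed within sampling noise (lowest chi-square per gene 23.6 over 128 pairs).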

Additional observations from a re-analysis of the deposited data

Results flagged for a closer look

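Of 40 sets of values (10 genes in 4 groups), 9 held a value set apart from the rest of its group by Dixon's criterion, and all 9 came from the library labelled KI inhibitor replicate 5. Chance alone sets apart about 1 group in 20, and the 9 share a library, so they count as 1 observation. Its values were 489.9 CPM of Acadvl, 261.3 CPM of Acadl, 505.1 CPM of Acadm and 130.6 CPM of Acads for the dehydrogenases. For the entry genes they were 167.7 CPM of Cpt2 and 157.2 CPM of Slc25a20. For the trifunctional protein and electron transfer they were 395.7 CPM of Hadha, 292.6 CPM of Hadhb and 441.8 CPM of Etfdh. The next highest library of the group had 91.6 CPM of Cpt2, 198 CPM of Hadha and 185 CPM of Etfdh. Cpt1a, at 545 CPM, was the highest of its group but not set apart, since the next library had 434 CPM.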

How the results depend on the processing

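Both KI versus WT results kept their direction and their call for all 10 genes in 45 settings each, 12 alternatives and 33 left-out libraries (450 of 450 values). The log2 fold changes ran from -1.63 to -0.73 on control chow and from -1.28 to -0.61 on inhibitor. The left-out libraries include those of the groups not compared. These enter a comparison only through the filter, the scaling, the shared spread and the terms for sex and title set. The number of members called higher on inhibitor in WT went from 0 to 1 (Acads) with only the 2 groups compared. In that fit 491 of 13708 genes were called higher, against 169 of 14934 in the main model. With 1 library left out the number of members ranged from 0 to 1. The 1 came without KI inhibitor replicate 5, where 307 of 14928 genes were called higher. The number of members higher in females was 1 in the main model and 3 in DESeq2. It was 0 with no title set, with the L code, in numbered titles alone and with the replicate number as a block. The number of all genes called higher in females moved as well, from 105 in the main model to 215 in DESeq2. It was 72 with no title set, 55 with the L code, 21 in numbered titles alone and 16 with the block. With 1 library left out the number of members ranged from 0 to 3. The cause was not tested. Cpt1a and Acadl were the added calls in DESeq2 and without WT control replicate 7 or KI inhibitor replicate 4, and Cpt1a alone without WT inhibitor replicate 7 or KI inhibitor replicates 1, 1P or 2P.

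With the replicate number as a block the KI versus WT medians were -1.23 and -0.97, and the lost call of Acadm was the only change of a call. The numbers did not pair libraries: same-numbered libraries of different groups had deviations with r from -0.21 to 0.36 (median 0.02, 14 of 37 pairs over 0.1). Over all 10 genes the estimates changed sign in 54 of 450 cases for the inhibitor in WT. They did so in 1 of 450 for the inhibitor in KI and in 10 of 440 for the interaction. The 450 values in WT include the 2 in which Acads passed, and Acads stayed above 0 in every setting (0.21 to 0.34). Depth limits none of the members, the lowest of which had 1787 counts in a library.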
